A study of Bos grunniens with 3 samples.

Results

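CCL27 IL1R2 cells of yak skin were chosen by the measured counts of 9 genes in each of 3 single-cell libraries. A cell belonged to the group when at least 200 genes were detected in it, when *CCL27* and *IL1R2* together had 3 or more unique molecular identifiers (UMIs, each standing for 1 captured transcript), when *KRT1* and *KRT10* together made up less than 0.5% of its UMIs, when *SPARC* was below 1000 CPM (UMIs per 1000000 UMIs of the cell), when *KRT79* had fewer than 3 UMIs and when *TOP2A*, *CENPF* and *UBE2C* together had fewer than 5 UMIs. The group held 2497 of the 38551 kept cells, or 6.48%. Since these 9 genes selected the cells, their levels are given as a description only.

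The cells came from scapular skin of healthy Tianzhu white yaks (*Bos grunniens*) about 2 years old, sampled at anagen, catagen and telogen of the hair cycle, with 1 library for each stage. The skin was digested with dispase, single hair follicles were pulled out and trypsin released the cells, which were loaded on the 10x Genomics platform. After cells with fewer than 200 detected genes were left out, 11987 anagen, 12062 catagen and 14502 telogen cells remained, with a median of 5256, 3350 and 5583.5 UMIs. The animals behind each library are not tied to it by the labels, the protocol text of the catagen library names anagen, and the Cell Ranger version differed with the stage, so stage, animal and library cannot be told apart. No result has a replicate, no test was run, and every interval (95%) covers counting error only. The libraries shared 43 cell barcodes between anagen and catagen, 40 between anagen and telogen and 49 between catagen and telogen, at most 0.404% of the smaller library of a pair.

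Basal keratinocytes sit on the basement membrane of the epidermis and of the outer layers of the follicle, are held there by hemidesmosomes and make the keratins KRT5 and KRT14. As they move upwards they turn on KRT1 and KRT10 and then the proteins of the cornified layer. CCL27 is a chemokine of keratinocytes that draws skin-homing T cells through the receptor CCR10, and IL1R2 is a decoy receptor that binds interleukin 1 without passing on a signal.

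The group held 851 anagen cells (7.10% of kept cells, 6.65 to 7.57), 993 catagen cells (8.23%, 7.75 to 8.74) and 653 telogen cells (4.50%, 4.17 to 4.85). Catagen was 1.13 percentage points above anagen (0.46 to 1.81) and telogen was 2.60 points below it (a difference of -2.60, -3.17 to -2.03). Members carried a median of 5450, 4324 and 6121 UMIs, against 5232.5, 3228 and 5538 in the remaining cells. The share of a library depends on its depth, because the limits on *CCL27* and *IL1R2*, on *KRT79* and on *TOP2A*, *CENPF* and *UBE2C* count UMIs. In thinned cells the limits on *KRT79* and on *TOP2A*, *CENPF* and *UBE2C* stayed at the same counts and were thus looser. When cells were first thinned to 1500 UMIs and 1 UMI was asked for, the shares were 10.3%, 13.7% and 7.46%, in the same order. Cells with fewer UMIs were left out wherever thinned cells are used, which took out 0 anagen, 2263 catagen and 2932 telogen cells, with 0, 23 and 12 members among them, so that the catagen and telogen values rest on the deeper cells of these libraries.

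*IL1R2* brought in most of the cells. The median member had 4 *IL1R2* UMIs in anagen and 5 in catagen and telogen, against 1, 0 and 0 *CCL27* UMIs. In anagen 467 members (54.9%) had both transcripts, 352 had *IL1R2* alone and 32 had *CCL27* alone. In catagen and telogen the cells with *IL1R2* alone were the larger number, with 688 cells (69.3%) and 451 cells (69.1%), and *CCL27* alone marked 7 and 9 cells. The summed level of *CCL27* in the members was 481 CPM in anagen, 134 in catagen and 196 in telogen. That of *IL1R2* was 990, 1218 and 889.

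The shares of cells with *IL1R2* along the *CCL27* UMIs are given as a description, since the rule counts both. Among cells within the other limits that could be thinned to 1500 UMIs, an *IL1R2* UMI was found in 16.6% of anagen cells without a *CCL27* UMI, in 46.0% of those with 1, in 67.5% of those with 2 and in 73.5% of those with 3 or more. In telogen the corresponding shares were 16.6%, 43.0%, 70.8% and 79.2%. In catagen they were 25.4%, 81.6%, 69.2% and 100%, the last in 6 cells (54.1 to 100%). Endothelial cells, which should lack *IL1R2*, had a UMI in 3 of 63 thinned anagen cells (4.76%), 0 of 18 catagen cells (which allows up to 18.5%) and 2 of 32 telogen cells (6.25%). Their median depths were 4006, 2425 and 4455 UMIs before thinning.

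Cells at the edge of the rule were common. Within the other limits 191 anagen, 234 catagen and 140 telogen cells had exactly 3 UMIs of the pair, and 279, 360 and 216 had 2 and stayed outside. Of all kept cells with 3 or more UMIs of the pair (2435, 1680 and 2390), the remaining limits took out 65.1%, 40.9% and 72.7%. The *SPARC* limit took out the most, with 1006, 404 and 1321 cells, followed by the limit on *KRT1* and *KRT10* with 582, 262 and 496 cells. The group is therefore a slice with low *SPARC* and low *KRT1* and *KRT10* of a larger set of cells with these transcripts, and it took in the largest part of that set in catagen.

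The 3 other marker genes of the group were higher in it than in the remaining cells of every library. KRT15 is a keratin of basal cells and of the follicle bulge. Its level was 711 CPM in the anagen members, 1611 in catagen and 589 in telogen, against 264, 580 and 266 in the remaining cells. *SCUBE2*, whose product helps to release hedgehog proteins from cells, stood at 147, 203 and 143 against 37.1, 50.6 and 42.4. *ITIH5*, which encodes a heavy chain that binds hyaluronan, was sparse, with 23.4, 44.8 and 18.9 CPM against 9.22, 7.36 and 7.71. In thinned cells a *KRT15* UMI was found in 54.6%, 86.0% and 56.0% of members, against 9.52%, 22.2% and 15.6% of endothelial cells. A *SCUBE2* UMI was found in 19.2%, 26.3% and 20.6% of members, against 0 of 63 (up to 5.69%), 5.56% and 9.38% of endothelial cells. Before thinning the shares of members were 83.0%, 96.2% and 88.1% for *KRT15* and 47.1%, 55.5% and 51.3% for *SCUBE2*. An *ITIH5* UMI was found in 3.88%, 7.11% and 4.21% of thinned members and in 0.456%, 0.725% and 0.435% of cells under the same limits with 0 UMIs of the pair. It was found in 3 of 63 (4.76%), 3 of 18 (16.7%) and 1 of 32 (3.13%) endothelial cells. For *ITIH5* the members were thus not above the few endothelial cells in anagen and catagen.

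*SCUBE2*, *POSTN*, *MYLK*, *SMOC2* and *KRT15* led the named genes higher in the group. Across the genes with 50 or more CPM on either side (the 9 genes of the rule left out), 42 were 2-fold or more higher in anagen members than in the remaining anagen cells (2.03% of the genes compared), 57 in catagen (2.81%) and 39 in telogen (2.13%). The catagen number was 29 after thinning to 1500 UMIs and 35 with the mean of cells. It was 37 without the members that carry genes of other compartments, as described below, with the remaining cells not filtered in this way. Ratios are on the log2 scale with 1 CPM added to each side, and their intervals are those of the plain ratio. *SCUBE2* had the highest least ratio over the 3 libraries, with log2 ratios of 1.95 (1.87 to 2.09), 1.98 (1.89 to 2.11) and 1.74 (1.64 to 1.88). POSTN, a matrix protein that binds integrins, followed with 1.77, 1.37 and 1.47. Its level was 2276, 1853 and 2376 CPM in the members and 669, 714 and 859 in the remaining cells. *MYLK*, for the myosin light chain kinase, had ratios of 1.59, 1.64 and 1.34, and *SMOC2*, for a calcium-binding matrix protein, 1.31, 1.80 and 1.32. *KRT15*, with 1.42, 1.47 and 1.14, was the fifth. *POSTN*, *MYLK*, *SMOC2*, *KRT15* and *SCUBE2* were, with 2 genes without a symbol, the 7 genes past 2-fold in all 3 libraries, which is 16.7% of the anagen list, 12.3% of the catagen list and 17.9% of the telogen list.

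Parts of the hemidesmosome and of its laminin anchor moved in the same direction by less. *COL17A1*, the transmembrane collagen of the hemidesmosome, was at 467, 596 and 327 CPM in the members and at 196, 278 and 186 in the remaining cells, with log2 ratios of 1.25, 1.10 and 0.81. *LAMA3*, a chain of laminin-332, had 1.16, 1.08 and 0.77, *DST*, for a plakin that ties keratin to the hemidesmosome, 0.82, 0.78 and 0.70, and *ITGA6*, for the integrin alpha chain of the same structure, 0.83, 1.04 and 0.58. All 4 were above the remaining cells in each library, and none was past 2-fold in telogen. The adaptor gene *TNS4*, the cadherin gene *CDH13*, the Notch ligand gene *JAG2*, the glutamine transporter gene *SLC1A5* and the peroxidase gene *PRDX6* belonged to the same 20, as did *CD74*, the invariant chain of antigen presentation, at 88.0, 341 and 167 CPM against 48.5, 139 and 84.7. In telogen 38.4% of the *CD74* UMIs of the members lay in 5 cells. *ACSL3*, *ADAMTS1*, *CTNNAL1*, *ARID5B* and *TIPARP* completed the 20, with log2 ratios between 0.58 and 1.06.

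**Figure D1:**
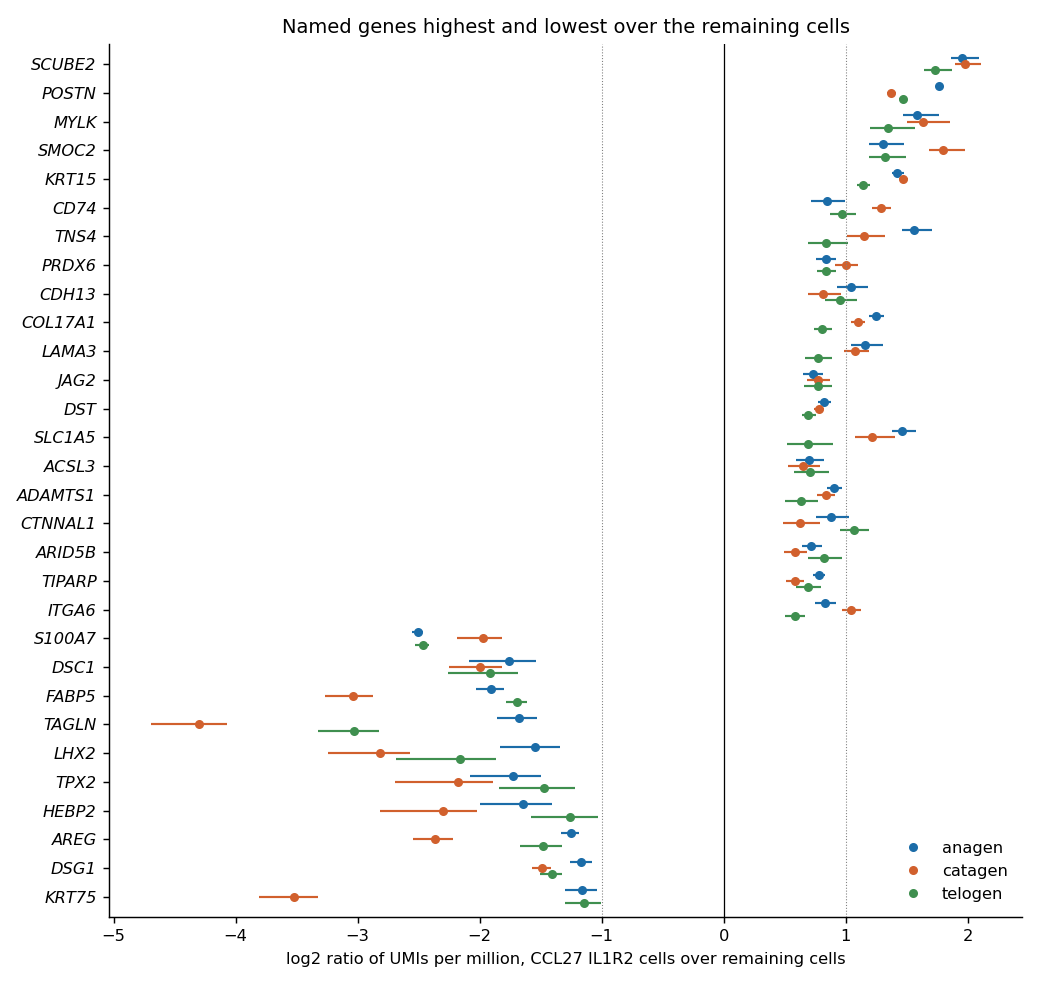
Log2 ratio of CPM in the CCL27 IL1R2 cells over the remaining cells (horizontal axis) for the 20 named genes with the highest least ratio and the 10 with the lowest greatest ratio, 1 point per stage with its 95% counting interval and dotted lines at 2-fold. The points for *SCUBE2*, *POSTN*, *MYLK*, *SMOC2* and *KRT15* lie past 2-fold in every library, and *TAGLN* and *KRT75* lie farthest down in catagen.

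*S100A7*, *DSC1* and *FABP5* led the other end. 74 genes were 2-fold or more lower in the anagen members (3.57%), 106 in catagen (5.23%) and 56 in telogen (3.06%), and 17 were lower in all 3. The telogen number was 106 without the members that carry genes of other compartments, a filter not applied to the remaining cells. *S100A7*, an antimicrobial protein of activated epidermis, was at 779, 51.5 and 537 CPM in the members and at 4437, 206 and 2974 in the remaining cells. Of the *S100A7* UMIs of the members, 20.2%, 63.2% and 51.4% lay in 5 cells, and with the members that carry genes of other compartments left out, as described below, its level was 539, 22.6 and 251. The desmosomal genes *DSC1* (20.4, 36.3 and 21.2 CPM against 71.1, 148 and 82.8) and *DSG1* (log2 ratios of -1.17, -1.49 and -1.41), which serve the upper epidermal layers, were lower, and so was *FABP5*, for a fatty acid carrier of keratinocytes (-1.91, -3.04 and -1.69). Of the bulge and outer root sheath list 2 of 8 anagen, 4 of 8 catagen and 2 of 7 telogen genes were past 2-fold lower. In each library 1, *POSTN*, was past 2-fold higher, where 2.03%, 2.81% and 2.13% of all genes compared were. With *POSTN* as its most counted gene, the list summed to 3874, 2721 and 3391 CPM in the members. In the remaining cells it summed to 2498, 2719 and 2292. The median log2 ratio of the list was -0.12, -1.27 and -0.47. Among its lower genes, *LHX2*, for a transcription factor of bulge and germ, stood at 25.8, 15.7 and 10.7 CPM against 77.2, 117 and 51.3. *KRT75*, a keratin of the companion layer, stood at 86.3, 29.5 and 77.8 against 194, 349 and 173, with 77.9%, 64.1% and 80.4% of its UMIs in 5 members of each library. With the same members left out *KRT75* was at 82.7, 17.0 and 20.8. *TAGLN*, for a smooth muscle and sheath protein, *HEBP2*, the EGF receptor ligand gene *AREG* and the spindle gene *TPX2* were the others, and *TPX2* is a gene of dividing cells, which the rule leaves out. The limit on *KRT1* and *KRT10* likewise takes differentiating cells out of the members only. Against cells under the same limits with 0 UMIs of the pair, *FABP5*, *TAGLN*, *LHX2*, *HEBP2* and *KRT75* were again called lower in all 3 libraries. *S100A7*, *DSC1*, *DSG1*, *AREG* and *TPX2* were not.

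Gene lists gave the same order. Of 17 basal keratinocyte genes with a row in the files, 8 anagen, 10 catagen and 8 telogen genes reached 50 CPM, and 3, 4 and 2 of them were past 2-fold higher and 0 lower, where 2.03%, 2.81% and 2.13% of all genes compared were higher. After thinning to 1500 UMIs the higher genes numbered 2, 1 and 1, and with the mean of cells 2, 1 and 2. Their median log2 ratio was 0.90, 0.82 and 0.73, against -0.02, -0.15 and -0.08 over all genes compared. *KRT14* was at 17042, 19761 and 18775 CPM in the members, with log2 ratios of 0.75 and 0.86 in anagen and catagen and -0.12 (-0.13 to -0.11) in telogen, and *KRT5* had 0.60, 0.60 and -0.12. In telogen the members thus lay just below the remaining cells for the 2 basal keratins and above them for *KRT15* and the hemidesmosome genes.

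Suprabasal and cornification genes went the other way, with 6 of 8 anagen genes, 7 of 11 catagen genes and 6 of 9 telogen genes past 2-fold lower and 0, 1 and 1 higher, and a median log2 ratio of -1.37, -1.49 and -1.36. Of all genes compared 3.57%, 5.23% and 3.06% were lower. The limit on *KRT1* and *KRT10* takes differentiating cells out of the members but not out of the remaining cells, and against cells under the same limits with 0 UMIs 4 of 7, 7 of 11 and 6 of 9 of these genes were lower, where 5.03%, 8.80% and 5.35% of all genes were. *SBSN*, for a secreted protein of the upper layers, was at 710, 1379 and 744 CPM against 2835, 2653 and 1915. Among the genes that reached 50 CPM the exception was *CNFN*, for the cornified envelope protein cornifelin, at 2.00, 107 and 97.7 CPM against 11.6, 18.1 and 34.1. Its UMIs lay in 20 catagen and 17 telogen members. Without the members that carry genes of other compartments, as described below, *CNFN* was at 1.34 and 1.47 CPM in these stages. Below that level *KLK5*, *TGM1*, *ALOXE3*, *ALOX12B* and *CDSN* were also past 2-fold higher in the catagen members (log2 ratio of 2.17 for *KLK5* and at most 1.41 for the others), and *TGM1* (1.08) and *ALOX12B* (1.13) in telogen. In the upper follicle list *KRT17* was level in anagen (4599 against 5018) and lower in catagen (960 against 3938) and telogen (2122 against 6583).

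Lists of signalling genes held few genes that reached the minimum level. In the interleukin 1 family, *IL1R2* left out, *IL1R1*, the signalling receptor, was at 43.4, 81.9 and 67.7 CPM against 33.4, 48.7 and 32.3. Among hedgehog genes *SCUBE2* was the only 1 of 19 that reached the minimum. In the BMP and TGF-beta list 2 of 7 anagen, 0 of 4 catagen and 1 of 3 telogen genes were past 2-fold higher and 1, 2 and 1 lower, where 2.03%, 2.81% and 2.13% of all genes compared were higher and 3.57%, 5.23% and 3.06% lower. *TGFBR2*, a TGF-beta receptor, had log2 ratios of 1.23, 1.14 and 0.88 and *TGFBI*, a matrix protein induced by TGF-beta, 1.33, 1.39 and 1.04, though *TGFBI* stayed below the minimum in catagen and *TGFBR2* in catagen and telogen, while the BMP target gene *ID2* had -1.24, -1.29 and -1.05 and *ID1*, of the same kind, -0.99, -0.79 and -0.44. *LFNG*, which modifies Notch receptors, had 0.38, 0.21 and 1.02. *HAS3*, a hyaluronan synthase, was at 142 CPM in anagen members against 40.7, and at 11.6 against 11.7 in catagen and 19.3 against 15.6 in telogen. Of the early response genes 18, 21 and 17 were compared and 0 were past 2-fold in either direction in any library, with a median log2 ratio of 0.22, 0.39 and 0.35. With 2.03% to 2.81% of all genes higher and 3.06% to 5.23% lower, a count of 0 in a list of this size lies near the background of that comparison. Against cells under the same limits with 0 UMIs, 3 of 18, 10 of 21 and 2 of 17 early response genes were past 2-fold higher and 0 lower. Their median log2 ratio there was 0.67, 0.96 and 0.58, and 6.7%, 5.3% and 3.71% of all genes compared were higher.

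Endothelial, mesenchymal, immune and Merkel markers had summed levels below 30 CPM in every library, while melanocyte, sebaceous and hair genes had more. The 9 endothelial genes summed to 3.63, 0.81 and 10.7 CPM in the members, with 4, 8 and 3 of them at 0, and *PECAM1*, *KDR* and *SELE* as the most counted. The 8 mesenchymal genes summed to 15.99, 25.5 and 10.3, most of it *COL5A1* (11.3, 25.5 and 8.03), with 2, 7 and 5 at 0. The 8 immune genes summed to 1.45, 3.67 and 4.12, with 6, 3 and 2 at 0, and *CORO1A* (1.09 and 1.85, in anagen and telogen) or *LCP1* (1.83, in catagen) as the most counted. The 4 Merkel and simple epithelium genes summed to 12.7, 1.63 and 0.62, all of it *KRT18*, with 3 at 0 in every library. Melanocyte genes summed to 98.5, 191 and 105, of which *GPNMB* made 92.0, 173 and 98.6, with 3 of 7 at 0. *GPNMB* was past 2-fold above the remaining cells in catagen (log2 ratio 1.12). Sebaceous genes summed to 52.7, 57.6 and 17.1 against 137, 29.3 and 77.9, most of it *ELOVL3*, with a log2 ratio of 1.33 in catagen. Mitotic genes summed to 166, 119 and 110 against 507, 432 and 369 in the remaining cells, as the rule sets. Hair genes were present, since inner root sheath genes summed to 543, 3359 and 1598 CPM (2100, 2201 and 950.5 in the remaining cells) with *KRT27* as the most counted, and cortex genes to 743, 53.8 and 161 with *KRT85* as the most counted. Where these sit among the members is given below.

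The comparison with cells under the same limits but with 0 UMIs of both genes puts those limits on both sides. There were 2854, 3912 and 3022 such cells, with a median of 4932, 2705.5 and 4562.5 UMIs. They held more hair genes than the remaining cells. Their inner root sheath genes summed to 5362, 5690 and 3967 CPM against 2100, 2201 and 950.5. Cortex genes summed to 2538, 1331 and 1168 against 1008, 527 and 315, and companion genes to 485, 954 and 576 against 194, 349 and 173. 140 genes were 2-fold or more higher in the members in anagen (6.7%), 112 in catagen (5.3%) and 68 in telogen (3.71%), while 105 (5.03%), 186 (8.8%) and 98 (5.35%) were lower. 23 genes were higher and 46 lower in all 3 libraries. The anagen number of higher genes was 93 with the mean of cells. The telogen number of lower genes was 152 without the members that carry genes of other compartments, a filter not applied to the cells with 0 UMIs. *SCUBE2* again led, with log2 ratios of 3.59 (3.48 to 3.92), 2.59 (2.47 to 2.79) and 2.94 (2.82 to 3.20). *KRT15*, at 711, 1611 and 589 CPM in the members, was at 91.5, 450 and 149 in the cells with 0 UMIs. *SMOC2* (2.77, 2.60 and 1.961), *POSTN* (3.28, 1.78 and 2.32), *COL17A1* (2.34, 1.71 and 1.83), *TNS4* (2.17, 1.51 and 1.66), *MYLK* (2.02, 1.93 and 1.47), *LAMA3* (2.04, 1.47 and 1.34), *CDH13* (1.81, 1.22 and 1.46) and *ITGA6* (1.32, 1.44 and 1.16) made up the rest of the 10 highest. Of the basal keratinocyte list 6 of 8, 5 of 10 and 6 of 8 genes were past 2-fold higher here, with a median log2 ratio of 1.40, 0.96 and 1.25.

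Among the 10 lowest were 4 follicle genes. *KRT75* had log2 ratios of -2.48, -4.97 and -2.87, the hair cortex keratins *KRT85* -1.78, -4.66 and -2.87 and *KRT35* -1.57, -3.91 and -2.57, and *LHX2* -1.55, -3.16 and -2.45. Of the bulge and outer root sheath list 2 of 8, 6 of 10 and 2 of 8 genes were past 2-fold lower here. In each library 1, *POSTN*, was higher. Of all genes compared 5.03%, 8.8% and 5.35% were lower and 6.7%, 5.3% and 3.71% higher. *GJA1*, for the main gap junction protein of skin, was at 56.3, 29.1 and 39.1 CPM against 174, 202 and 142. *ATP6V1B1*, a subunit of a proton pump, *IL1F10*, of the interleukin 1 family, *MYH14*, *NFE2L3* and *TAGLN* were the other genes, and each was past 2-fold lower in all 3 libraries. *S100A7*, the lowest gene against the remaining cells, had log2 ratios of 0.91, 1.58 and 0.07 here. In catagen and telogen this rests on few cells. In catagen 63.2% of its UMIs in the members lay in 5 cells. Its catagen level of 51.5 CPM fell to 22.6 without the members that carry genes of other compartments. In telogen its level of 251 CPM without those members was below the 513 of the cells with 0 UMIs, which were not filtered in this way.

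Some of the cells with 0 UMIs carried basal genes, and 720 anagen, 1218 catagen and 816 telogen cells had 3 or more UMIs of *COL17A1* and *DST* together, which chose them and are not read here. Against these basal cells 35 genes were 2-fold or more higher in the members in anagen (1.75%), 69 in catagen (3.39%) and 49 in telogen (2.71%), and 38 (1.9%), 106 (5.21%) and 33 (1.82%) were lower. *SCUBE2* kept log2 ratios of 2.42, 1.45 and 2.00, *KRT15* 1.78, 1.31 and 1.01 and *SMOC2* 1.62, 1.64 and 1.05. *POSTN* had 1.93, 0.51 and 1.14. *MYLK* (0.76, 0.78 and 0.52), *TNS4* (0.94, 0.51 and 0.68), *LAMA3* (0.75, 0.26 and 0.29), *CDH13* (0.60, 0.19 and 0.47) and *ITGA6* (0.19, 0.39 and 0.12) were within 2-fold in all 3 libraries.

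Levels of several genes differed along the number of *CCL27* and *IL1R2* UMIs. Cells within the other limits and with at least 1500 UMIs were thinned to that number and split by the UMIs of the pair that were left. This gave 3596, 589, 222 and 318 anagen cells with 0, 1, 2 and 3 or more, 3439, 677, 331 and 345 catagen cells and 2885, 394, 141 and 196 telogen cells. *KRT15* was at 172, 427, 598 and 897 CPM along these classes in anagen, at 735, 1449, 1633 and 1892 in catagen and at 258, 457, 539 and 942 in telogen. *POSTN* went from 492 to 2950 in anagen, from 898 to 2186 in catagen and from 892 to 3207 in telogen, each step upwards. *SMOC2* also went up at each step, from 27.1 to 111 in anagen, from 30.0 to 141 in catagen and from 32.8 to 167 in telogen. *SCUBE2* was at 61.1, 175, 211 and 226 in catagen and at 37.2, 102, 128 and 180 in telogen. In anagen it was at 26.3, 86.0, 183 and 157, with the last class lower. Intervals of classes next to each other overlapped at 1 step or more for *SMOC2* and *SCUBE2* in every library and for *KRT15* and *POSTN* in catagen and telogen. *COL17A1* was not higher with 2 UMIs than with 1 in any library, at 350, 345 and 509 in the anagen classes with 1, 2 and 3 or more UMIs, at 607, 550 and 657 in catagen and at 274, 265 and 398 in telogen. *DST* in catagen went from 1275 to 993 at the last step, and *KRT14* in telogen from 17306 to 15608 between 1 and 2 UMIs. In the other direction *KRT17* went from 5378 to 512 in catagen, from 5947 to 963 in telogen and only from 5950 to 4105 in anagen, and *LHX2* from 79.2 to 18.9, from 150 to 3.86 and from 68.4 to 6.80. *SBSN* in telogen did not fall at each step, with 1499, 626, 955 and 126. The classes are cut by the UMIs that the rule counts, so these levels are a description.

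**Figure D2:**
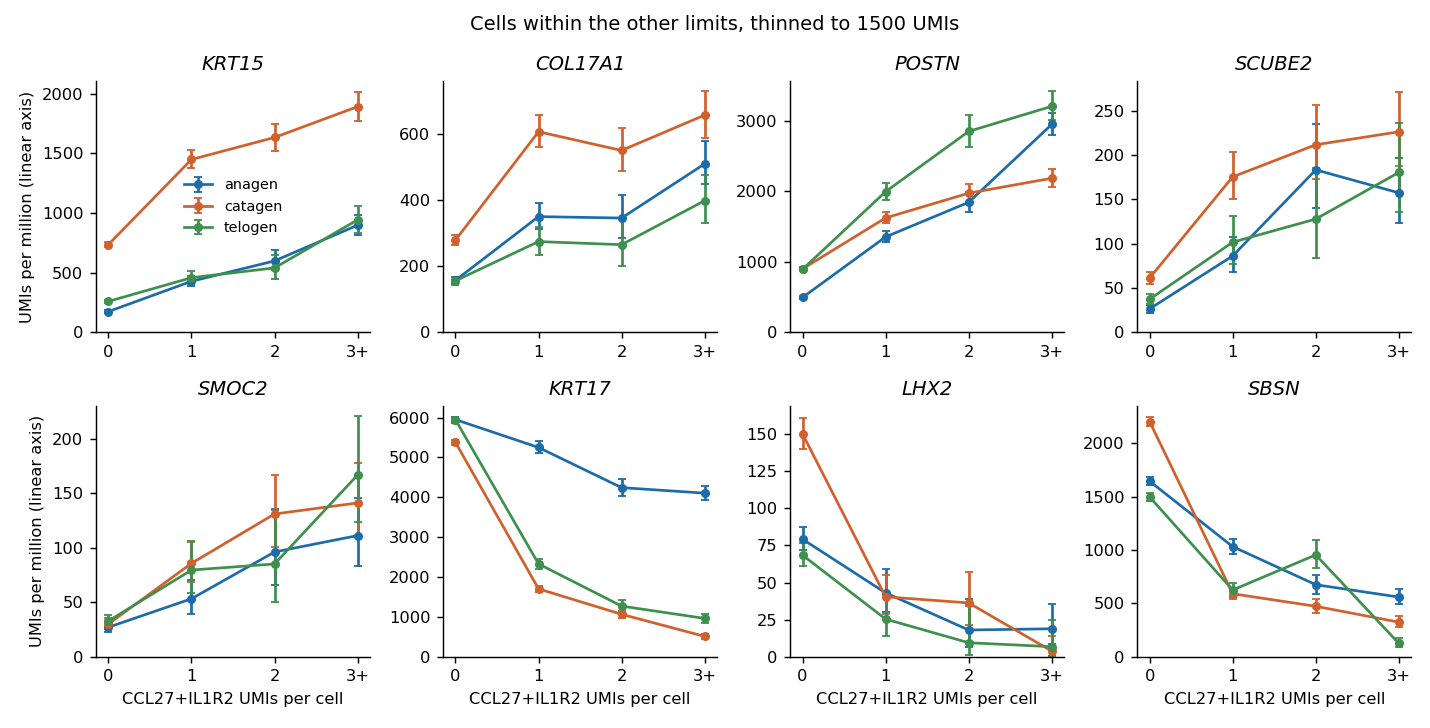
Summed level in CPM (vertical axis, linear, from 0) of 8 genes in cells within the other limits, thinned to 1500 UMIs and split by their *CCL27* and *IL1R2* UMIs (horizontal axis), with 95% Poisson intervals and 1 line per stage. *KRT15*, *COL17A1*, *POSTN*, *SCUBE2* and *SMOC2* are lowest at 0 UMIs and *KRT17*, *LHX2* and *SBSN* are highest there, in all 3 libraries.

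Of the 5 sets compared with the members, the cells that the *SPARC* limit alone had taken out gave the fewest genes past 2-fold. SPARC is a matrix-associated glycoprotein, and 868 anagen, 393 catagen and 1081 telogen cells had 3 or more UMIs of the pair, passed the limits on the other 6 genes and were above the *SPARC* limit. The members were 2-fold or more lower in 8 genes against these cells in anagen (0.404%), 6 in catagen (0.327%) and 12 in telogen (0.672%), and higher in 31 (1.57%), 58 (3.16%) and 46 (2.58%). With the members that carry genes of other compartments left out, as described below, the higher genes numbered 9, 3 and 4. The cells with high *SPARC* were not filtered in this way. The marker genes were not highest in the members. *KRT15* was at 1130, 1819 and 955 CPM in the cells with high *SPARC* against 711, 1611 and 589, *SCUBE2* at 247, 246 and 237 against 147, 203 and 143, *COL17A1* at 801, 838 and 617 against 467, 596 and 327, and *ITIH5* at 64.6, 69.4 and 48.0 against 23.4, 44.8 and 18.9. *CCL27* itself was at 886, 171 and 703 there, against 481, 134 and 196. *SCUBE2*, *KRT15*, *COL17A1* and *ITIH5* were thus lower in the members in all 3 libraries, with log2 ratios between -0.17 and -1.42, and the gap was narrowest in catagen for each.

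Cells that the *KRT1* and *KRT10* limit alone had taken out stood apart from the members. There were 436, 241 and 303 of them, with a median of 8046, 6631 and 9474 UMIs. Against them 80 genes were 2-fold or more higher in the members in anagen (3.96%), 82 in catagen (4.37%) and 71 in telogen (3.96%), and 87 (4.3%), 75 (3.99%) and 54 (3.01%) were lower. The telogen number of lower genes was 85 without the members that carry genes of other compartments, a filter not applied to the cells compared with them. *KRT15* kept part of its level in these differentiating cells, at 457, 982 and 304 CPM. *SCUBE2*, at 38.0, 47.2 and 34.5, and *CDH13*, at 30.2, 28.9 and 27.8 against 108, 109 and 111 in the members, were near the level of the remaining cells or below it. *S100A7* reached 9618 and 7590 CPM in these cells in anagen and telogen and 220 in catagen.

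**Figure D3:**
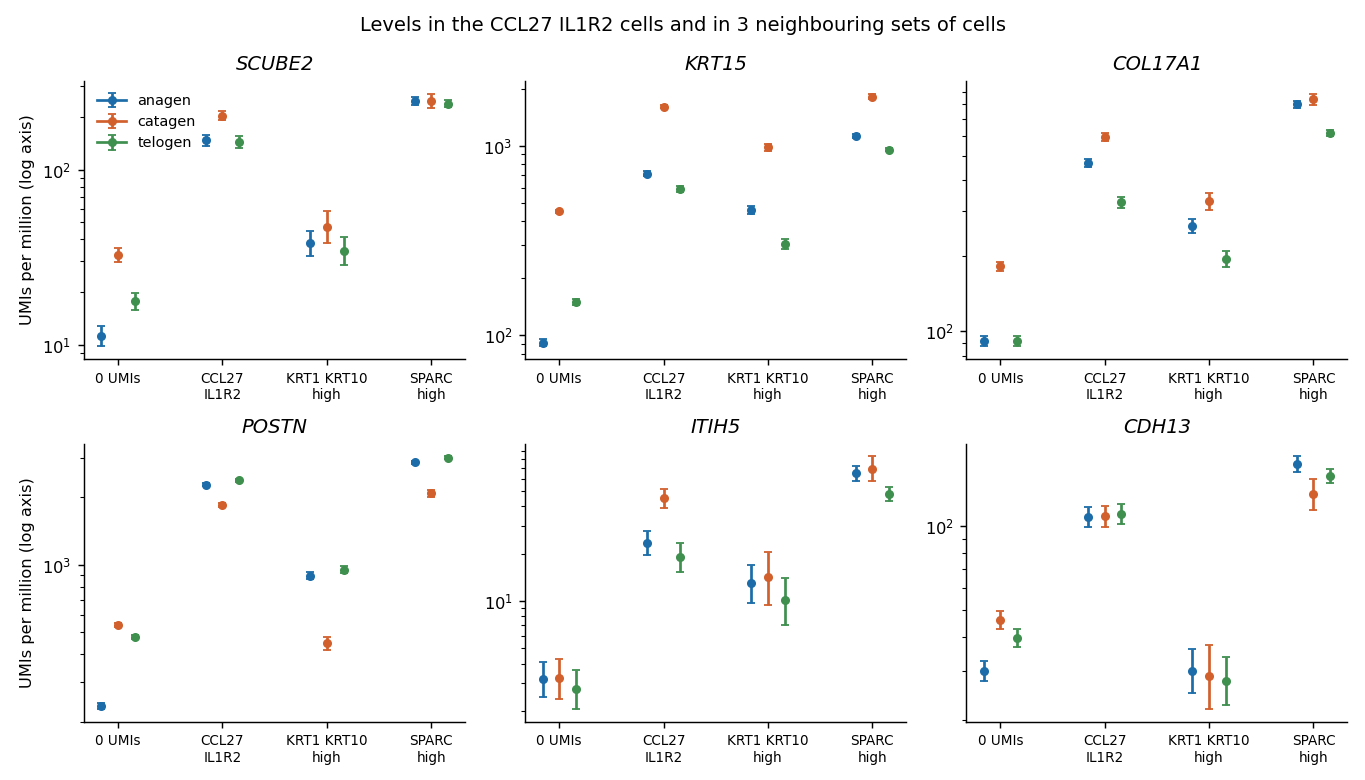
Summed level in CPM (vertical axis, logarithmic) of 6 genes in the CCL27 IL1R2 cells and in cells with 0 UMIs of the pair, cells with high *KRT1* and *KRT10* and cells with high *SPARC*, with 95% Poisson intervals and 1 colour per stage. For *SCUBE2*, *KRT15*, *COL17A1*, *ITIH5*, *POSTN* and *CDH13* the cells with high *SPARC* are the highest of the 4 sets in every library, and the CCL27 IL1R2 cells come next.

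The members were not all alike. Limits set after the values were seen divided them by inner root sheath keratins (1% or more of the cell's UMIs), by the cornification genes *SBSN*, *KRTDAP*, *SPINK5* and *KLK7* (0.5% or more) and by a low sum of *KRT5*, *KRT14* and *KRT15* (below 0.5%). 742 of 851 anagen cells, 949 of 993 catagen cells and 595 of 653 telogen cells fell in none of these. Inner root sheath keratins marked 5, 4 and 2 members, which held 0.750%, 2.32% and 2.95% of the UMIs of the group. The 4 catagen cells had a median of 24487.5 UMIs and the 2 telogen cells 71634.5, against 4324 and 6121 over all members of these stages. In these 4 catagen cells *KRT27*, a keratin of the inner root sheath, made up 85200 CPM, against 44.8 in the other catagen members. Such keratins chose these cells, so this level is a description only.

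Cornification genes marked 77, 28 and 47 members with 10.8%, 5.68% and 11.7% of the UMIs. In the catagen cells of this kind *SPINK5*, an inhibitor of skin proteases, was at 12739 CPM against 60.5 in the other members, and *CNFN* at 1867 against 1.30. In telogen *CNFN* was at 828 against 1.40 and in anagen, where *KLK7* (1461 against 41.4), a protease of the cornified layer, was the leading gene, *CNFN* had UMIs in 3 members. *SPINK5* and *KLK7* were among the genes that chose these members, so their levels are a description only. A low sum of basal keratins marked 27, 12 and 9 members. In anagen these led with the hair keratin *KRT85* (8656 against 337) and *CYP4X1*, and in telogen with *FABP7*, for a fatty acid binding protein (894 against 1.04). The antigen presentation genes *HLA-DRA* (287 against 0.205 in catagen and 355 against 0.834 in telogen) and *CD74* (4087 against 114 in telogen) were among the leading genes, with the cytokine genes *CXCL8* (263 against 0) and *IL1A* (358 against 6.16) in catagen and *CCL5* (308 against 0) in telogen. So was *VIM*, for an intermediate filament that keratinocytes lack (215 against 1.23 and 601 against 7.09). Doublets had not been removed, and whether these members are single cells was not tested.

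Stage comparisons within the group rest on 1 library each. From anagen to catagen 120 genes were 2-fold or more higher (5.71%) and 266 lower (12.7%), with the median gene shifted by -0.20 on the log2 scale. Relative to that median 188 were higher and 172 lower. Telogen had 74 genes higher (3.64%) and 255 lower (12.5%) than anagen, and 108 and 187 relative to a median of -0.16. Telogen had 189 genes higher (9.51%) and 243 lower (12.2%) than catagen, and 179 and 252 relative to a median of 0.01. In the remaining cells the same comparisons gave 2.8% higher and 3.36% lower for catagen over anagen, 3.92% and 7.83% for telogen over anagen and 6.17% and 10.1% for telogen over catagen. The summed members hold fewer UMIs (5502545, 4909689 and 4859367) than the summed remaining cells, and the part of depth in this gap was not tested.

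Many of the highest stage ratios came from a handful of cells. Of the 8 genes highest in catagen over anagen, 7 had more than 50% of their catagen UMIs in 5 members, and 1, *LYPD5*, stayed past 2-fold when the members with genes of other compartments were left out. *UPK3A*, *CNFN*, *SERPINA12*, *TMPRSS11F*, *CA6*, *KRT27* and *CCHCR1* did not. *KRT27*, at 196 CPM in anagen and 2018 in catagen, had 97.9% of its catagen UMIs in 5 cells. Without the members with genes of other compartments *KRT27* was at 60.4 and 45.8. It is among the keratins that chose members left out, so this fall is a description only. Of the 8 genes highest in telogen over anagen, 7 were likewise concentrated, among them *MGP* (98.0% of telogen UMIs in 5 cells) and *MMP7* (91.8%), and 2, *MMP7* and *S100A4*, stayed past 2-fold. Genes lower than anagen were spread more evenly, since all 8 lowest in catagen and all 8 lowest in telogen stayed past 2-fold without those members, though *CYP4X1* had 88.7% of its anagen UMIs in 5 cells and *KRT85* 62.1%.

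**Figure D4:**
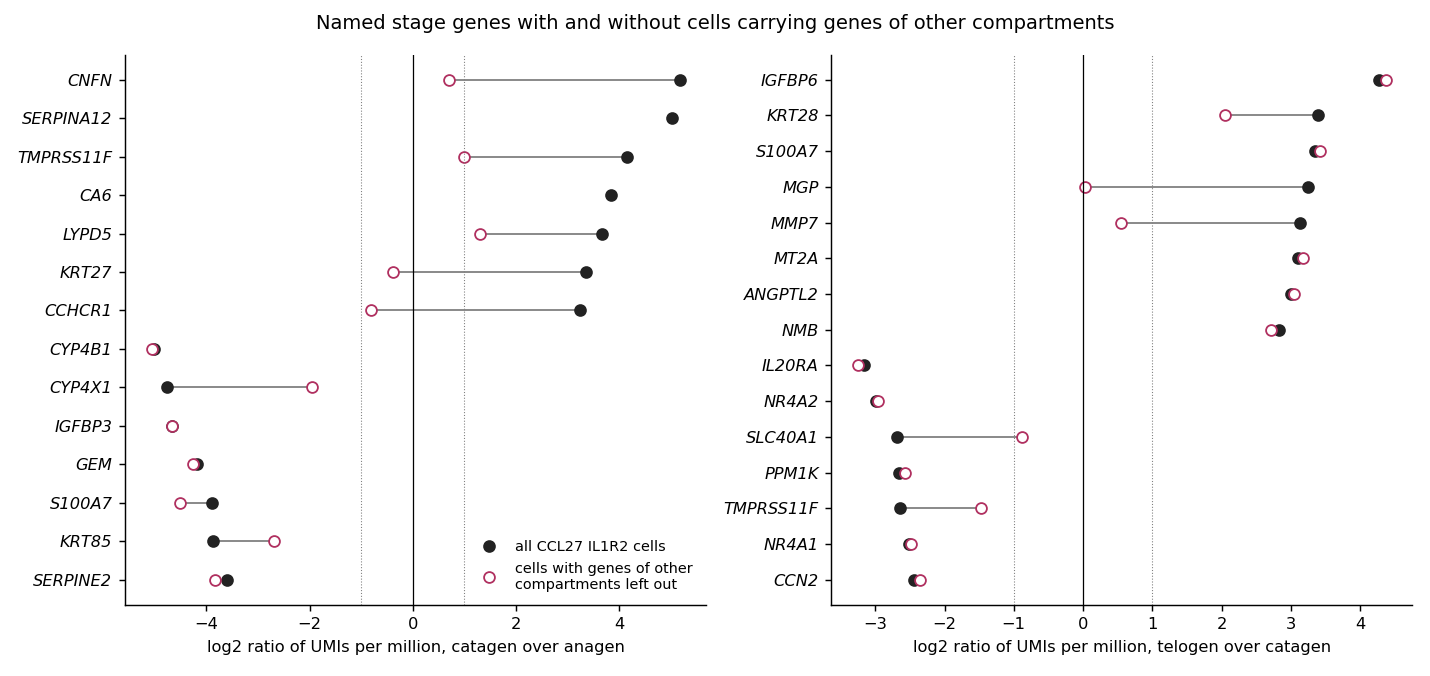
Log2 ratio of CPM between stages within the CCL27 IL1R2 cells (horizontal axis), for the named genes of catagen over anagen and of telogen over catagen, with all members (filled) and with members carrying genes of other compartments left out (open). *MMP1* and *UPK3A* are not drawn because of counts at or near 0, a gene with at most 3 UMIs on both sides has no open point, and dotted lines mark 2-fold. The open points of *KRT27* and *CCHCR1* lie below 0, those of *IGFBP3*, *IGFBP6*, *MT2A* and *IL20RA* next to the filled ones. *KRT27* and *KRT28* are among the keratins that chose members left out.

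Several genes were highest in the anagen members. *MMP1*, the interstitial collagenase, had 668 UMIs in 117 anagen members (121 CPM), 0 in catagen and 25 in 9 telogen members (5.14), so that anagen was at least 198-fold higher than catagen against a floor of 3 counts in that library. The remaining cells had 13.2, 0.62 and 1.92. *IGFBP3*, which binds insulin-like growth factors, was at 521, 19.6 and 60.9 CPM in the members and at 239, 62.5 and 72.9 in the remaining cells. It was thus above the remaining cells in anagen (log2 ratio 1.12) and below them in catagen (-1.63). *CYP4B1*, a cytochrome P450, was at 143, 3.46 and 49.0, and *GEM*, for a small GTPase, at 76.3, 3.26 and 4.73. *SERPINE2*, *S100A7*, *ITPKC*, *NEDD9*, *FST* and *CCL20* were also among the lowest genes of a later stage. FST binds and blocks activins, and *FST* was at 280, 69.3 and 29.4 CPM. CCL20 is a chemokine for cells with the receptor CCR6, and *CCL20* was at 522, 211 and 63.6 in the members and at 433, 219 and 124 in the remaining cells.

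Catagen members had the highest *KRT15* and *IL20RA*. *KRT15* in catagen was above anagen by 1.18 on the log2 scale (1.13 to 1.24) in the members and by 1.13 in the remaining cells, so the group moved with the library. *IL20RA*, a receptor subunit of the interleukin 20 family, was at 32.3, 157 and 16.7 CPM in the members and at 16.6, 39.9 and 13.7 in the remaining cells. It had UMIs in 134, 448 and 59 members, and in catagen 4.02% of its UMIs lay in 5 cells. The phosphatase gene *PPM1K* (19.6, 59.7 and 8.64) and the early response gene *NR4A1* (70.1, 173 and 29.4) also peaked in catagen, and *SLC40A1*, with 84.6% of its catagen UMIs in 5 cells, did so through few cells. Without the members with genes of other compartments *SLC40A1* stood at 10.8 and 10.7 in anagen and catagen.

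Telogen members had the highest levels of *MT2A*, *S100A4* and *ANGPTL2*. *MT2A*, for a metallothionein that binds zinc and other metals, was at 1406, 505 and 4339 CPM in the members and at 748, 358 and 1996 in the remaining cells. *S100A4*, for a calcium-binding protein, was at 116, 170 and 636, and *ANGPTL2*, for a secreted angiopoietin-like protein, at 22.4, 9.98 and 87.0. *NMB*, a neuropeptide gene, stood at 38.5, 19.6 and 145 in the members, below the remaining cells in each library (83.3, 89.6 and 250.4), and *PDLIM4* at 22.4, 11.2 and 76.8. *IGFBP6* was the highest of telogen over catagen, at 90.0, 12.02 and 252 CPM. These genes were also higher in the remaining telogen cells, with log2 ratios over anagen of 1.42 for *MT2A*, 2.41 for *S100A4* and 2.21 for *ANGPTL2*, against 1.62, 2.45 and 1.91 in the members.

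Genes lowest in telogen included an early response gene and genes of the matrix and the cytoskeleton. *NR4A2*, a nuclear receptor of the early response, was at 264, 351 and 43.4 CPM in the members and at 207, 242 and 34.5 in the remaining cells. *CCN2*, a matrix-associated protein gene, was at 347, 551 and 101, *ADAMTS1*, a secreted metalloproteinase gene, at 467, 343 and 100.4 and *NDRG1* at 570.5, 486 and 168. *DENND2C*, for a regulator of Rab proteins, was at 192 in anagen and 35.8 in telogen, and *MYH9*, for a non-muscle myosin heavy chain, at 245 and 65.9. The log2 ratio of *NR4A2* in telogen over anagen was -2.57 in the members and -2.55 in the remaining cells, and that of *ADAMTS1* -2.21 and -1.93. The 30 early response genes summed to 12301, 15998 and 6627 CPM in the members and to 11115, 12186 and 5274 in the remaining cells, and the part of this library-wide difference was not tested.

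**Figure D5:**
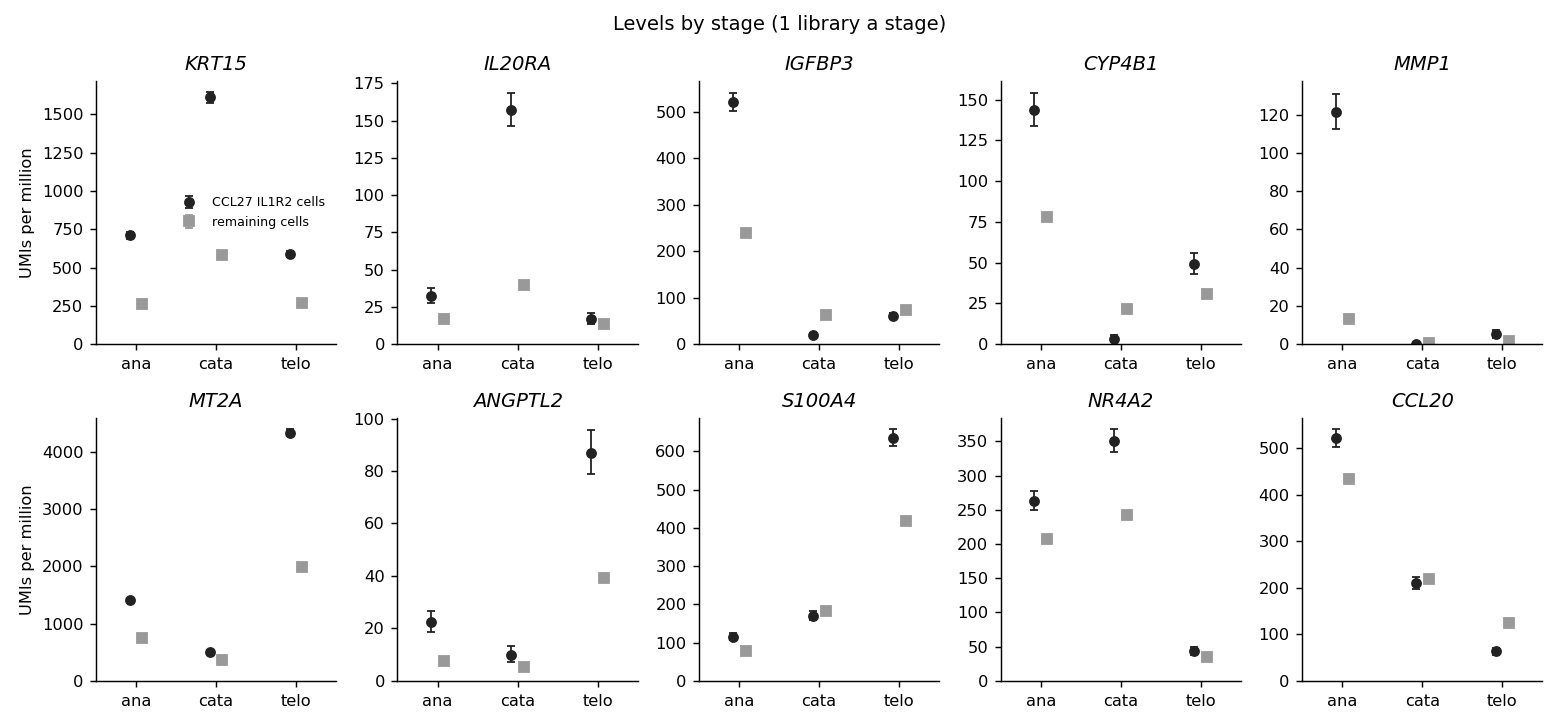
Summed level in CPM (vertical axis, linear, from 0) of 10 genes at anagen, catagen and telogen in the CCL27 IL1R2 cells (black) and the remaining cells (grey), with 95% Poisson intervals. *KRT15* and *IL20RA* are highest in catagen and *MT2A*, *ANGPTL2* and *S100A4* in telogen on both sets of points, whereas *IGFBP3* and *MMP1* differ more between stages in the CCL27 IL1R2 cells.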

How the data were processed

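The authors deposited, for each stage, a Cell Ranger matrix of raw UMI counts per gene and cell, with no normalization. Per the file headers Cell Ranger was 4.0.0 (anagen), 3.1.0 (catagen) and 6.0.2 (telogen), whereas the labels give 2.1.1. The genome build is not given in the sources used here, so no coordinates or sequences are printed. The files hold 12000, 12124 and 14573 cells with 82862998, 51647865 and 103511775 UMIs. The 3 lists of 26924 genes are identical, and 15765 genes have a symbol.

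UMIs were summed over cells and given as CPM (per 1000000 UMIs). Ratios took 1 CPM as pseudocount. Exact 95% intervals were Poisson for levels, conditional binomial for ratios and Clopper-Pearson for shares. Calling a gene 2-fold higher or lower is not a test. Endothelial cells had 3 or more UMIs of the endothelial markers. Genes were named as the 20 highest and 10 lowest over the remaining cells by the least and greatest ratio, 10 and 10 over cells with 0 UMIs, and 8 and 8 per pair of stages and for telogen against its nearer stage, with list members as examples. Members and lists were chosen with earlier results of these data known. Doublets were left in. Python 3.11.15 was used, and the calculations were checked on simulated data. One named gene is not reported here.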

Additional observations from a re-analysis of the deposited data

Results flagged for a closer look

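Some named genes were past 2-fold higher than the remaining cells in one library and past 2-fold lower in another. The values are log2 ratios of the CCL27 IL1R2 cells over the remaining cells of the same library, from 1 library a stage, and the differences between stages were not tested. *CNFN* had -2.07 in anagen, 2.51 in catagen and 1.49 in telogen. *SERPINA12*, for an adipokine of the serpin family, had -1.28, 2.62 and 2.94, *KRT27* -2.03, 1.79 and 1.17, and *CCHCR1* -1.49, 1.66 and 1.19. *SPINK7*, for a protease inhibitor, had -2.76, 3.52 and 2.38, and *MMP7*, for matrilysin, -2.37, -1.83 and 1.52. *KLK5*, for a protease of the cornified layer, had -2.08 in anagen and 2.17 in catagen. For these 7 genes more than 50% of the UMIs in each higher stage lay in 5 members. *IGFBP3* had 1.12 in anagen and -1.63 in catagen, and *GEM* 1.45 and -1.88.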

How the results depend on the processing

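With 1 library a stage the data hold no replicate error, so intervals cover counting only, and stage, animal, library and Cell Ranger version cannot be told apart. Genes near the minimum level are limited by depth. No paired analysis was possible because each stage has 1 library. The order of the shares (catagen, anagen, telogen) was the same in all 10 alternatives. In anagen, catagen and telogen the share was 7.72%, 10.8% and 5.62% of cells with 1000 or more genes, 9.43%, 11.2% and 5.99% with 2 UMIs asked for, 4.48%, 4.78% and 2.79% with 5, 10.3%, 13.7% and 7.46% after thinning with 1 UMI, 5.82%, 7.62% and 4.06% with *KRT1* and *KRT10* below 0.25%, and 8.19%, 8.80% and 5.05% below 1%. Catagen and telogen had 11.4% and 5.41% with 500 CPM of the pair, and 11.1% and 5.86% among cells with at least 2404 UMIs, the smallest anagen total.

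At 10 CPM the genes higher and lower over the remaining cells were 109 and 229 in anagen, 155 and 383 in catagen and 83 and 173 in telogen. Over cells with 0 UMIs they were 357 and 314, 298 and 586, and 170 and 269, over cells with high *KRT1* and *KRT10* 274 and 179, 333 and 183, and 257 and 122, and over cells with high *SPARC* 88 and 39, 148 and 40, and 117 and 50. Between stages they were 398 and 606 (catagen over anagen), 204 and 606 (telogen over anagen) and 403 and 656 (telogen over catagen). At 200 CPM the same counts were 13 and 21, 22 and 27, and 12 and 18, then 43 and 27, 41 and 40, and 21 and 38, then 22 and 29, 24 and 30, and 20 and 24, then 12 and 3, 20 and 0, and 18 and 3, and between stages 34 and 87, 32 and 84, and 53 and 68. Basal list genes higher were 5 in anagen at 10 and 1 in telogen at 200, and suprabasal list genes lower were 11 in anagen and telogen at 10 and 3 in catagen at 200.

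After thinning, 29 genes were higher over the remaining cells in catagen, 16 and 29 over cells with high *SPARC* in anagen and catagen, and 1 basal list gene in catagen and in telogen. With the mean of cells, 35 were higher over the remaining cells in catagen, 93 over cells with 0 UMIs in anagen, 17 and 25 over cells with high *SPARC* in anagen and catagen (3 lower in catagen), and 1 basal list gene in catagen. With a pseudocount of 10, 24 were higher over the remaining cells in telogen, with 1 basal list gene, and 2 were lower over cells with high *SPARC* in catagen. With 5 UMIs asked for, 1 basal list gene was higher in telogen. Relative to the median, catagen over anagen gave 188 and 172. Without the highest 5% of UMI totals, 19 and 16 genes were higher over cells with high *SPARC* in anagen and catagen, and log2 ratios reversed for *KRT27* (catagen over anagen, -1.22), *KRT28* (telogen over catagen, -0.75) and *TMPRSS11F* (0.32).

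With the members carrying genes of other compartments left out, an alternative chosen after seeing the data, 37 genes were higher over the remaining cells in catagen and 106 lower in telogen, 152 lower over cells with 0 UMIs and 85 lower over cells with high *KRT1* and *KRT10* in telogen, and 9, 3 and 4 higher over cells with high *SPARC*. Reversed were *KRT27* (-0.39) and *CCHCR1* (-0.81) in catagen over anagen, and *MGP* (-0.059), *SPINK7* (-1.17), *CCHCR1* (-0.19) and *KLK5* (-0.99) in telogen over anagen. No ratio could be given there for *UPK3A*, *SERPINA12* and *CA6*. *KRT27* is among the keratins that chose members left out, so its reversal is a description only. The cause of these moves was not tested. In the counts over other cells only the members were filtered, and the cells compared with them kept cells of these kinds. Of 2296 ratios of named genes under an alternative, 9 reversed.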
